A study of Mus musculus with 2 samples.

Results

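Clade B serpins were described across single epithelial cells of the mouse tongue: 10 genes of the 32285 in the deposited count matrices, chosen by symbol (Serpinb12, Serpinb3a, Serpinb3b, Serpinb3c, Serpinb3d, Serpinb2, Serpinb5, Serpinb11, Serpinb1a and Serpinb6a). A further 17 genes of the tables carry a Serpinb symbol. The cells came from the tongue epithelium of male mice, host strain given as B57BL/6, aged 8 to 12 weeks, with no transgene or treatment named. The groups were Zeitgeber time (ZT) 0 and ZT12, lights on and lights off in the usual convention, with 1 library each. How many mice went into a library is not stated in the labels. Library, mice and time cannot be told apart, so no test was made, and every interval below covers counting error only.

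Serpins fold into a strained shape with an exposed reactive centre loop. A protease that cuts the loop is trapped as the serpin collapses around it, and some members have kept the fold but lost the inhibitory activity. Clade B members lack a classical secretion signal and act mainly inside the cell, and stratified epithelia, which carry proteases needed for maturing and shedding their upper layers, are a main site of their expression. In the tongue, basal cells divide and feed the layers above, and these end in cornifying cells or in the hard, hair-like keratin scales of the filiform papillae.

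All 10 members were found by Ensembl identifier in GENCODE M21 (GRCm38, the assembly called mm10), and all are annotated as protein coding. Of these, 8 lie within 674306 bases of chromosome 1, from 106861173 to 107535478, in the order Serpinb5, Serpinb12, Serpinb3a, Serpinb3d, Serpinb3b, Serpinb3c, Serpinb11 and Serpinb2. Serpinb1a (32842092 to 32851185) and Serpinb6a (33917918 to 34002794) lie on chromosome 13, both on the minus strand. Among the 4 Serpinb3 genes, the longest reading frames were 86.3% to 93.1% identical, whereas every other pair of members shared 51.4% to 58.5%. The last 400 bases of the transcript, where 3' libraries are read, had no stretch of 90 bases in common with a transcript of another Serpinb gene for any member. Over these bases Serpinb3a, Serpinb3b and Serpinb3c were still 92.0% to 93.1% identical to each other, and miscounting between these copies was not tested. The annotated Serpinb3b gene spans most of Serpinb3c, on the same strand, but the exons share 35 bases and none of these is within the last 400 bases of either gene.

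The RefSeq table of promoters (GRCm38.p6) held 9 members and had no entry for Serpinb1a. Of the main classes described below, Serpinb3a was highest in cornifying-like cells and Serpinb3b in filiform-like cells. Yet 58.7% of Serpinb3b UMIs were in cluster 5 of the differentiated-like class, where Serpinb3a was also counted. The stretches before the starts of Serpinb3a, Serpinb3b and Serpinb3c are shown because these windows are nearly identical while the class levels differed. Each is 120 bases on the minus strand of chromosome 1, given 5′ to 3′ along the gene, and ends 35, 11 and 1 bases before the start in RefSeq, which for Serpinb3b lies inside the longer gene of GENCODE. Capitals in Serpinb3b and Serpinb3c mark bases that differ from Serpinb3a, and capitals in Serpinb3a mark the 9 positions at which either copy differs.
Serpinb3a, chr1:107052338-107052457: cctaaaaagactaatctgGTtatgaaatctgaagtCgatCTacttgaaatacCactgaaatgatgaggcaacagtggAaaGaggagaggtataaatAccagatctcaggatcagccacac
Serpinb3b, chr1:107161125-107161244: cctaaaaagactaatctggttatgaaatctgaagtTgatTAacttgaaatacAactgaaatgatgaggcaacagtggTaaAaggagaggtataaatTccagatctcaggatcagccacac
Serpinb3c, chr1:107278372-107278491: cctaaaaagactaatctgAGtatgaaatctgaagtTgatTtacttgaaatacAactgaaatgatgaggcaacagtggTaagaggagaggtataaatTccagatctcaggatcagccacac
Serpinb3b and Serpinb3c each differed from Serpinb3a at 7 of the 120 bases (94.2% identity) and from each other at 4 (96.7%). The letters TATAAAT, searched on both strands in the 250 bases before the start, were present in all 3 and not in Serpinb3d, and 3.53% of the 32851 promoters of the table held them. Without gaps, the 250 bases before Serpinb3d matched those before Serpinb3a at no more than 35.7% of the bases.

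After filtering, 1593 cells with 49256011 unique molecular identifiers (UMIs, each counting 1 captured transcript) were kept at ZT0 and 2620 cells with 67059151 UMIs at ZT12, with medians of 28401 and 23088 UMIs per cell. The members together took 87184 and 110904 UMIs, or 1770 and 1654 CPM (UMIs scaled to a common library size). The 2 libraries shared 2 barcode sequences. Clusters were formed without any Serpinb gene and were then named from marker lists, with a naming rule chosen once the clusters were known. Serpinb12 and Serpinb3a were nevertheless among the 10 leading genes of the cornifying-like cluster, and Serpinb3b among those of cluster 5. The basal-like class (489 and 785 cells at ZT0 and ZT12) had all 8 of its markers at 20 CPM or more, and so did the differentiated-like class (503 and 942 cells). The cornifying-like class (81 and 229 cells, 1 cluster) had 4 of 12 such markers and the filiform-like class (114 and 207 cells) 5 of 10, so these 2 labels rest on part of their lists. Taste markers were at 0 in the basal-like and cornifying-like classes but not in the filiform-like class. Several clusters came almost entirely from 1 library, among them cluster 10 of the differentiated-like class (148 and 1 cells) and clusters 1 (22 and 357 cells) and 8 (197 and 4 cells) of the basal-like class, so a class did not hold the same clusters in both libraries.

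**Figure D1:**
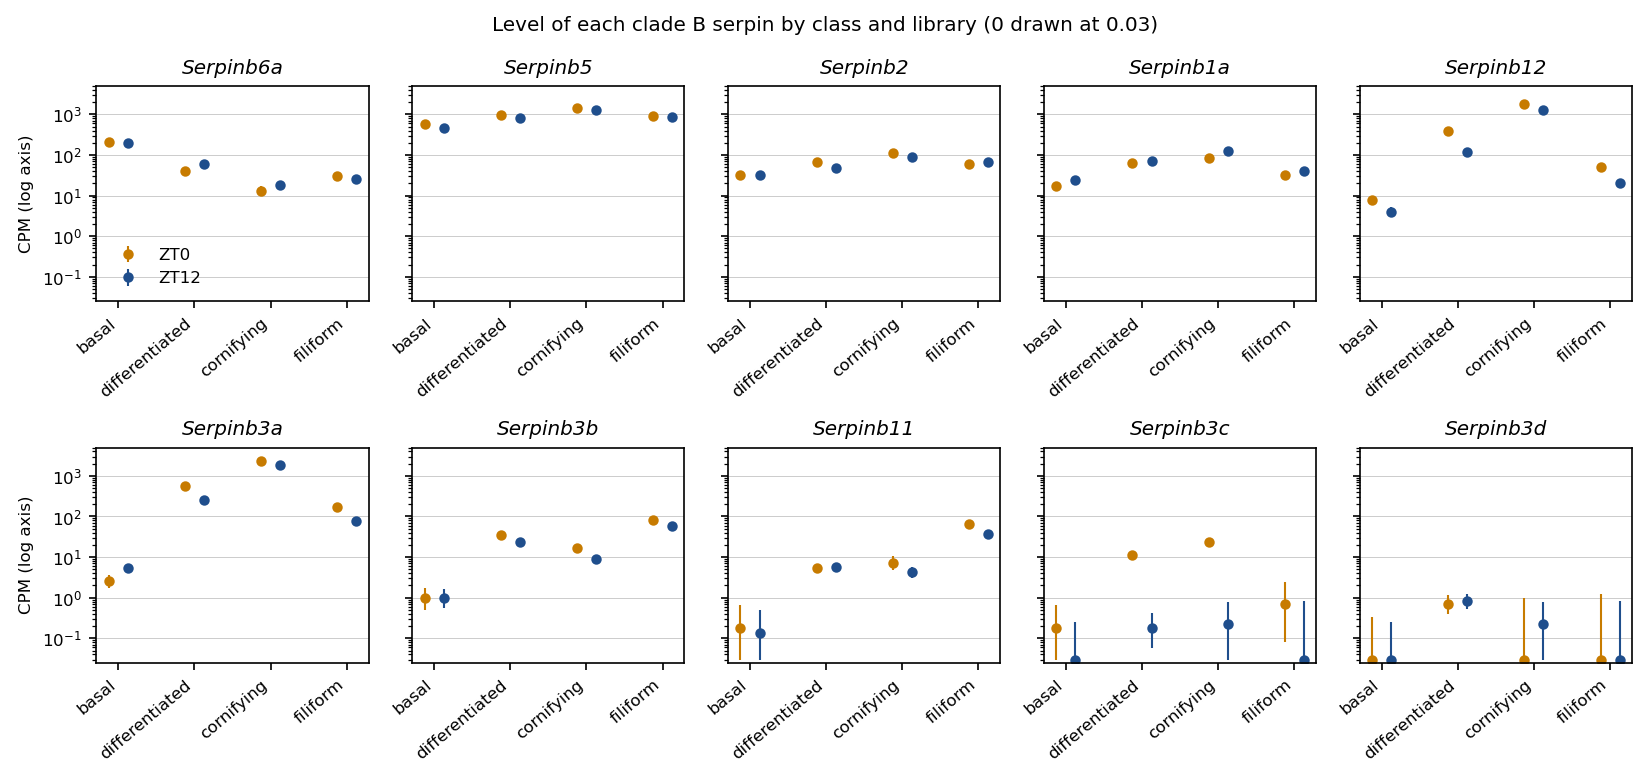
Level of each member in CPM (log axis) in the 4 classes, ZT0 in orange and ZT12 in blue, with exact Poisson 95% intervals that are often smaller than the points; a count of 0 is drawn at 0.03. Serpinb6a is highest in basal-like cells, Serpinb12 and Serpinb3a in cornifying-like cells, and Serpinb3b and Serpinb11 in filiform-like cells, in both libraries.

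By level in the 4 classes, members were highest in basal-like, cornifying-like, filiform-like or, for Serpinb3d, differentiated-like cells. Some were counted in most classes. Of the 10, 6 had their highest level of the 4 classes in cornifying-like cells, over both libraries. Serpinb6a, whose human counterpart inhibits cathepsin G and trypsin-like proteases, ran the other way and was highest in the basal-like class, at 206 CPM in the ZT0 library (95% interval 197 to 214) and 196 CPM in the ZT12 library (189 to 203). Its levels were 41.0 and 60.5 CPM in the differentiated-like class, 30.5 and 25.9 CPM in the filiform-like class and 12.9 and 18.7 CPM in the cornifying-like class. The basal-like level was thus 15.9 times (12.0 to 21.7) the cornifying-like level at ZT0 and 10.5 times (8.95 to 12.3) at ZT12. Proliferating-like cells, which carry basal keratins and cell cycle genes, had 247 and 206 CPM. After each cell was thinned to 10000 UMIs to remove differences in depth, the share of cells with a Serpinb6a UMI was 81.1% and 83.0% in the basal-like class, against 9.21% and 14.1% in the cornifying-like class. Outside the 4 classes, simple epithelial-like cells had 116 and 146 CPM. Leukocyte-like cells had 81.5 CPM (52.7 to 120) at ZT0 and 105 CPM (50.4 to 193) at ZT12. Of the leukocyte-like cells, 9 of 22 and 5 of 10 had a UMI before thinning, at median depths of 14248 and 9374 UMIs. Free RNA may contribute there, and its part was not tested.

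Serpinb5 encodes maspin, a serpin that does not inhibit proteases and is known as a tumour suppressor in mammary epithelium. It was counted in nearly every epithelial cell: after thinning, 97.1% to 100% of cells had a UMI in each of the 4 classes and both libraries. Its level was lowest in basal-like cells, at 564 and 460 CPM in the ZT0 and ZT12 libraries, and highest in cornifying-like cells, at 1403 and 1255 CPM, with differentiated-like cells between them at 950 and 805 CPM. Filiform-like cells lay at 922 and 858 CPM, and at ZT0 they could not be told from differentiated-like cells (ratio 1.03, 0.989 to 1.07). The span from the lowest to the highest class was 2.49-fold (2.40 to 2.58) at ZT0 and 2.73-fold (2.65 to 2.81) at ZT12. In leukocyte-like cells, which should lack the gene, 5 of 22 cells had a Serpinb5 UMI at ZT0, with 18 of the 28 UMIs in 1 cell, and 1 of 10 cells had 1 UMI at ZT12.

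Serpinb12 and Serpinb3a were counted mainly in the upper layers, with the highest levels in cornifying-like cells and the lowest in basal-like cells. Serpinb12 is known in human as an inhibitor of trypsin-like proteases, and Serpinb3a belongs to the family of the human squamous cell carcinoma antigens, which inhibit cysteine proteases such as cathepsin L or serine proteases such as cathepsin G. Serpinb12 reached 1843 CPM (1800 to 1887) in cornifying-like cells at ZT0 and 1276 CPM (1253 to 1300) at ZT12. Its level was 383 and 121 CPM in differentiated-like cells, 49.7 and 20.5 CPM in filiform-like cells, and 7.86 and 4.05 CPM in basal-like cells. Every class lay above the next by more than the counting intervals, and the highest exceeded the lowest 234-fold (190 to 293) at ZT0 and 315-fold (245 to 414) at ZT12. Serpinb3a followed the same order, with cornifying-like cells at 2350 and 1887 CPM, differentiated-like cells at 573 and 250 CPM, filiform-like cells at 174 and 78.4 CPM and basal-like cells at 2.59 and 5.39 CPM.

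Both genes were counted in the same cornifying-like cells. After thinning, UMIs of both were counted in 72 of 76 such cells of the ZT0 library and 199 of 220 of the ZT12 library, and none of these thinned cells lacked both. The median thinned cell had 11 and 9 UMIs of Serpinb12 and 13.5 and 14.5 of Serpinb3a at ZT0 and ZT12. In differentiated-like cells the genes were counted more unevenly, with both in 28.8% of cells at ZT0 and 13.7% at ZT12, and neither in 230 of 490 and 547 of 920 cells. Few filiform-like cells had both: at ZT12, 10 of 181 cells had Serpinb12 alone, 33 had Serpinb3a alone and 3 had both. In that library 7.18% of thinned filiform-like cells had Serpinb12 and 19.9% Serpinb3a, against 95.9% and 94.5% of cornifying-like cells. Whether the overlap in a class differed from what these shares alone give was not tested. The 3 filiform-like cells with at least 20 UMIs of Serpinb12 held 0, 1 and 2 UMIs of Serpinb3a, and the 3 with at least 50 UMIs of Serpinb3a held 0, 0 and 3 of Serpinb12. All of these cells were in cluster 6, and none had a UMI of the filiform marker Krt36. The differentiated marker Krt13 was at 27460 CPM in the cell with 20 UMIs of Serpinb12. It was at 35719 CPM in the cell with 65 UMIs of Serpinb3a, and at 81.6 to 826 CPM in the others. The basal marker Krt14 was at 42990 and 28630 CPM in the cells with 211 and 88 UMIs of Serpinb3a. In the others Krt14 was at 0 to 243 CPM. The cornifying marker Cnfn was at 463 to 1110 CPM in the 3 cells high in Serpinb3a, and at 0 to 65.8 CPM in those high in Serpinb12. Basal-like cells had a Serpinb12 UMI in 3.16% and 3.89% of thinned cells and a Serpinb3a UMI in 3.58% and 5.90%, at median depths of 22564 and 18519 UMIs before thinning. Of the leukocyte-like cells, 1 of 22 and 1 of 10 had a Serpinb12 UMI and none had one of Serpinb3a. The basal-like Serpinb12 UMIs were unevenly spread at ZT0, where cluster 17 held 57 of 88 and 1 of its cells 42.

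**Figure D2:**
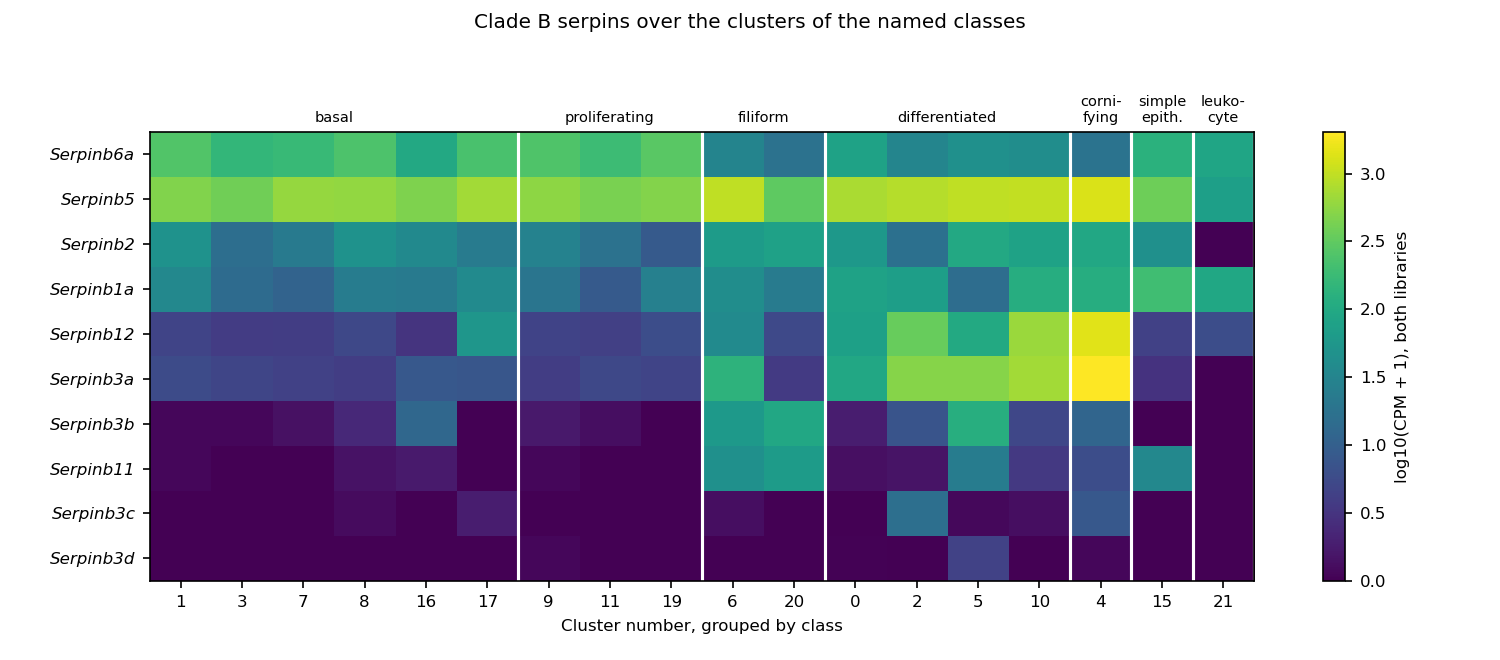
Level of each member, as log10(CPM + 1) with both libraries summed, in the 18 clusters of the named classes (columns, grouped by class). Serpinb12 and Serpinb3a peak in cluster 4, Serpinb3b in clusters 5, 20 and 6, Serpinb11 in clusters 20, 6 and 15, and Serpinb3d is counted almost entirely in cluster 5.

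Within the differentiated-like class Serpinb3b and Serpinb3d were counted mainly in 1 cluster, and Serpinb3a in several. Cluster 5, led by Flg, Krt76 and Tchh, held 58.7% of all Serpinb3b UMIs and 87.8% of the few Serpinb3d UMIs, but 10.8% of those of Serpinb3a. Serpinb3b stood there at 140 and 102 CPM in the ZT0 and ZT12 libraries, against 6.40 and 6.12 CPM in cluster 2 of the same class, where Serpinb3a was higher at ZT0 (707 CPM, against 571 CPM in cluster 5) and lower at ZT12 (363 against 463 CPM). Serpinb3b was also high in the filiform-like clusters, at 74.0 and 53.0 CPM in cluster 6 and 108 and 87.3 CPM in cluster 20, which is led by the hair keratins Krt84, Krt36 and Krt35. In cluster 20 Serpinb3a was counted at only 3.99 and 1.59 CPM. Cornifying-like cells, the site of the highest Serpinb3a level, had 16.4 and 8.92 CPM of Serpinb3b.

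Serpinb3d was counted at the limit of detection, with 15 UMIs in 13 cells at ZT0 and 26 UMIs in 22 cells at ZT12. Of these cells, 12 and 19 were differentiated-like. No Serpinb3d UMI was counted in basal-like or filiform-like cells, which allows a level of up to 0.268 and 0.202 CPM in basal-like cells and 1.03 and 0.676 CPM in filiform-like cells (3 counts over the class).

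Serpinb11, whose mouse protein is an active inhibitor of trypsin-like proteases while the common human form is not, had its highest level in filiform-like cells, at 64.0 CPM (55.2 to 73.9) at ZT0 and 36.7 CPM (31.3 to 42.8) at ZT12. It was at 7.27 and 4.24 CPM in cornifying-like cells and 5.39 and 5.77 CPM in differentiated-like cells, an order that counting error leaves undecided in both libraries. Within the differentiated-like class it was again cluster 5 that carried it, at 18.9 and 26.8 CPM. Simple epithelial-like cells, a cluster with keratins 8 and 18 and the gland product lactoferrin, had 37.2 and 28.9 CPM. After thinning, 18 of 105 filiform-like cells of the ZT0 library and 15 of 181 of the ZT12 library had UMIs of both Serpinb3b and Serpinb11.

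Serpinb2, the intracellular plasminogen activator inhibitor, was spread over all 4 classes. It was lowest in basal-like cells (32.4 and 31.3 CPM) and highest in cornifying-like cells (110 and 89.9 CPM), a span of 3.38-fold (2.93 to 3.90) at ZT0 and 2.87-fold (2.56 to 3.23) at ZT12. It was uneven inside the differentiated-like class, at 120 and 83.0 CPM in cluster 5 but 13.0 and 17.3 CPM in cluster 2. Activated macrophages are a known source of the protein, but whether any were among the 32 leukocyte-like cells was not tested. The leading genes of these cells included Cd74, H2-Aa and Cd207, and no Serpinb2 UMI was counted in them. The limit that a count of 0 allows there was 9.77 CPM at ZT0 and 31.5 CPM at ZT12.

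Serpinb1a, a counterpart of the human inhibitor of neutrophil elastase, was likewise counted in every class, from 17.6 and 24.4 CPM in basal-like to 83.2 and 126 CPM in cornifying-like cells. Its highest level of any named class was in simple epithelial-like cells at ZT0 (244 CPM, 212 to 280; 34 cells), where 5 cells held 53.8% of its UMIs. Leukocyte-like cells had 61.9 CPM (37.3 to 96.7) at ZT0 and 189 CPM (112 to 299) at ZT12.

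Over 29 profiles (19 clusters, each library apart, at least 30 cells), Serpinb12 and Serpinb3a had a Pearson correlation of 0.91 of log2(CPM + 1), Serpinb12 and Serpinb5 of 0.87, and Serpinb3a and Serpinb6a of -0.93. Serpinb3b was correlated at 0.65 with Serpinb11 and 0.66 with Serpinb3a. The profiles of a cluster in the 2 libraries share its definition, and those of a library share its depth and free RNA, so these values describe and test nothing. Among 2826 other genes of at least 50 CPM, the 3 most like Serpinb3a were Fabp5, a fatty acid binding protein of epidermis (0.92), the glutaredoxin Glrx (0.92) and the histone variant H2afj (0.92). Those most like Serpinb12 were H2afj (0.90), the glutathione transferase Gsta2 (0.89) and Glrx (0.88). The 3 most like Serpinb6a were Cavin3, a caveolar coat protein (0.95), the basal integrin subunit Itgb1 (0.94) and the purine synthesis enzyme Paics (0.93). Serpinb5 was most like Mgst3, Zfp706 and Thop1 (0.88 to 0.90), Serpinb2 most like Higd1a, Rab27b and Eno1 (0.75 to 0.79), and Serpinb1a most like Tmbim6, Idh1 and Spint2 (0.86 to 0.89).

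Turning to the time of day, a member was called different between the libraries when its CPM differed at least 1.5-fold, the exact 95% interval of the ratio excluded 1, and its mean CPM was at least 5. In all cells together, 8 members reached the minimum and 1 was called, Serpinb1a, higher at ZT12; the same rule called 6.62% of the 9543 genes tested, 1.16% as higher and 5.46% as lower. Serpinb1a was counted at 46.1 CPM (44.2 to 48.0) at ZT0 and 70.0 CPM (68.0 to 72.0) at ZT12, a ratio of 1.52 (1.45 to 1.60). Of its 2269 and 4695 UMIs, 26 and 869 were in the unnamed cluster 13, which had 4 and 115 cells. The ratio is close to the limit of 1.5, and the part of that cluster in the call was not tested. The other 7 members that reached the minimum had ratios of ZT12 to ZT0 between 0.739 (Serpinb3b) and 0.982 (Serpinb3a). The median log2 ratio was -0.18 over the members tested and -0.04 over all genes tested.

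The all-cell values joined differences within classes with differences in class shares. Cornifying-like cells made up 5.08% (4.06 to 6.28) of cells at ZT0 and 8.74% (7.69 to 9.89) at ZT12, and held 59.8% of Serpinb12 and 53.0% of Serpinb3a UMIs. When each class was given the same weight in both libraries, Serpinb12 was 1.83-fold higher at ZT0 in place of 1.26-fold, and Serpinb3a 1.40-fold in place of 1.02-fold. Serpinb1a was then 1.40-fold higher at ZT12 and no longer passed 1.5-fold.

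In differentiated-like cells, 9 members were tested and 4 were called, all lower at ZT12 (Serpinb12, Serpinb3a, Serpinb3b and Serpinb3c), where 5.4% of all genes were called, 2.89% as lower and 2.51% as higher. Serpinb12 was 3.18-fold higher at ZT0 (3.05 to 3.31), at 383 against 121 CPM. Serpinb3a was 2.29-fold higher at ZT0 (2.22 to 2.36), at 573 against 250 CPM. The share of thinned cells with a Serpinb12 UMI was 41.8% at ZT0 and 26.0% at ZT12, and that with a Serpinb3a UMI 40% and 28.3%. Serpinb3b was 1.55-fold higher at ZT0 (1.39 to 1.72), but its log2 ratio turned from -0.63 to 0.12 at a clustering resolution of 0.5. The call of Serpinb3c rested on 1 cell with 213 of its 216 UMIs. Serpinb6a was 1.47-fold higher at ZT12 (1.36 to 1.61), just short of the limit. The median log2 ratio of the tested members was -0.49, against 0.05 over all genes.

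These differences varied with the clusters that made up the class. Cluster 10, nearly all ZT0 and led by Chil4 and interferon-response genes, had 637 CPM of Serpinb12 and 699 CPM of Serpinb3a. The unnamed cluster 13, with 4 and 115 cells, was left out of the class. Its differentiated marker score was 0.801, against 0.796 for cluster 10. It had 216 and 196 CPM of Serpinb12 and 593 and 743 CPM of Serpinb3a. The class ratio with cluster 13 included was not tested. Cluster 0, with 104 and 529 cells, had 79.5 and 73.8 CPM of Serpinb12 and 85.5 and 98 CPM of Serpinb3a, so neither gene was called there, against 8.03% of all genes. Cluster 2 had 492 and 227 CPM of Serpinb12 and 707 and 363 CPM of Serpinb3a, both called lower at ZT12, against 5.92% of all genes. In cluster 5 the levels were 122 and 83.7 CPM of Serpinb12 and 571 and 463 CPM of Serpinb3a, short of 1.5-fold, which 5.31% of all genes passed. Serpinb3b was called in neither cluster 2 nor cluster 5. Its ratios of ZT12 to ZT0 were 0.956 (0.616 to 1.49) and 0.732 (0.653 to 0.820). In cluster 0 it was at 1.26 and 0.716 CPM, under the minimum level. Serpinb1a was not called in the class, at 62.7 and 69.4 CPM, and cluster 10 held 673 of its 1233 ZT0 UMIs there. In cluster 0 Serpinb1a was called higher at ZT12 (47.3 and 85.8 CPM, ratio 1.81, 1.53 to 2.16). Its ratios in clusters 2 and 5 were 1.35 (1.18 to 1.54) and 1.37 (0.970 to 1.95), short of 1.5-fold. Without clusters of 1 library the log2 ratios in the class were -1.19 for Serpinb12 and -1.05 for Serpinb3a, in place of -1.67 and -1.20. They were -0.68 and -0.32 at a clustering resolution of 2.0 and -0.81 and -0.54 with a stricter cell filter, so that Serpinb3a was no longer called under either. The summed level of the basal markers in the class was 4542 CPM at ZT0 and 6568 CPM at ZT12, and that of the cornifying markers 153 and 57.7 CPM. Their part in the result was not tested.

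**Figure D3:**
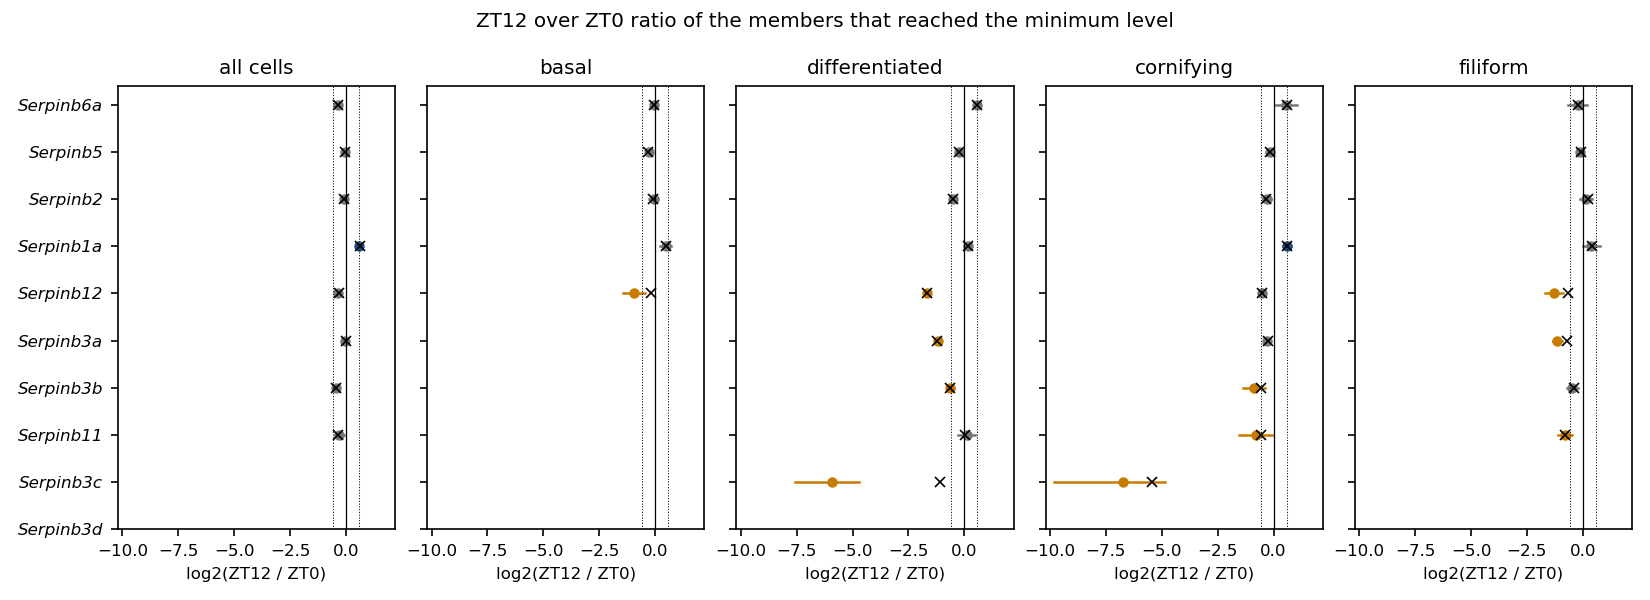
Log2 ratio of ZT12 to ZT0 for each member that reached the minimum level, in all cells and the 4 classes, with exact 95% intervals; blue marks members called higher and orange members called lower at ZT12, grey the rest, and dotted lines 1.5-fold. Crosses give the ratio without the highest cell of the member in each library: Serpinb3c in differentiated-like cells moves from -5.94 to -1.09, whereas Serpinb12 in the same class stays near -1.7.

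In cornifying-like cells, 4 of 9 members were called, against 7.14% of all genes (3.29% higher and 3.84% lower): Serpinb1a higher and Serpinb3b, Serpinb3c and Serpinb11 lower at ZT12. Serpinb1a was at 83.2 CPM (74.2 to 93.0) in the ZT0 library and 126 CPM (119 to 134) in the ZT12 library, a ratio of 1.52 (1.34 to 1.73), with a UMI in 47.4% and 67.3% of thinned cells. With scaling by TMM, a trimmed mean of gene ratios, its log2 ratio of 0.58 fell just under the limit. The 2 most abundant members stayed under 1.5-fold: Serpinb12 was 1.44-fold higher at ZT0 (1.40 to 1.49) and Serpinb3a 1.24-fold (1.21 to 1.28). Serpinb5 was 1.12-fold higher at ZT0 (1.08 to 1.16). The calls of Serpinb3b (61 and 80 UMIs), Serpinb3c (89 and 2 UMIs) and Serpinb11 (27 and 38 UMIs) were not made when the highest cell of each gene was left out of each library. Serpinb3b was then 1.48-fold higher at ZT0 (0.998 to 2.18), and Serpinb3c (43.2-fold, 6.83 to 1802) and Serpinb11 (1.47-fold, 0.756 to 2.76) were under the minimum level. Serpinb6a, 1.45-fold higher at ZT12 (1.05 to 2.04) with all cells, was then called higher (1.53-fold, 1.09 to 2.18). The cornifying markers themselves summed to 1214 CPM at ZT0 and 469 CPM at ZT12 in this class, and the part of that difference in these results was not tested.

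In filiform-like cells, 3 of 8 members were called, all lower at ZT12, against 6.02% of all genes (2.83% lower and 3.19% higher). Serpinb11 was 1.74-fold higher at ZT0 (1.41 to 2.17), with a UMI in 26.7% and 18.8% of thinned cells, and without its highest cells still 1.74-fold (1.38 to 2.18). Its clusters differed: Serpinb11 was at 66.6 and 30.7 CPM in cluster 6, but at 51.9 and 73.0 CPM in cluster 20, where the ratio of ZT12 to ZT0 was 1.41 (0.852 to 2.37). In cluster 5 of the differentiated-like class the ratio was 1.42 (1.08 to 1.87). Serpinb12 (49.7 and 20.5 CPM) and Serpinb3a (174 and 78.4 CPM) rested on few cells: 1 cell held 62.1% of the ZT0 UMIs of Serpinb12 and 1 cell 41.5% of those of Serpinb3a. Without the highest cell of each library they were 1.56-fold (1.05 to 2.32) and 1.61-fold (1.37 to 1.90) higher at ZT0, and the shares of thinned cells with a UMI were 8.57% and 7.18% for Serpinb12 and 21.0% and 19.9% for Serpinb3a. At a clustering resolution of 2.0 the log2 ratio of Serpinb12 turned from -1.28 to 1.45. In this class the taste markers summed to 39.0 CPM at ZT0 and 0 at ZT12 (2 of 4 at 0), and the simple epithelial markers to 42.8 and 8.11 CPM (1 of 6 at 0). The part of these markers in the results was not tested. Serpinb3b, at 79.8 and 57.9 CPM, was 1.38-fold higher at ZT0 (1.15 to 1.65).

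In basal-like cells, 1 of 5 members was called, Serpinb12, lower at ZT12, against 6.5% of all genes (3.83% lower and 2.67% higher). That call came from 88 and 60 UMIs, of which 42 at ZT0 were in 1 cell. Without the highest cell of each library the levels were 4.12 and 3.58 CPM, below the minimum, and the direction turned under the stricter cell filter (log2 ratio 0.20). Serpinb6a differed little (1.05-fold higher at ZT0, 0.994 to 1.11), and Serpinb5 was 1.23-fold higher at ZT0 (1.19 to 1.27).

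**Figure D4:**
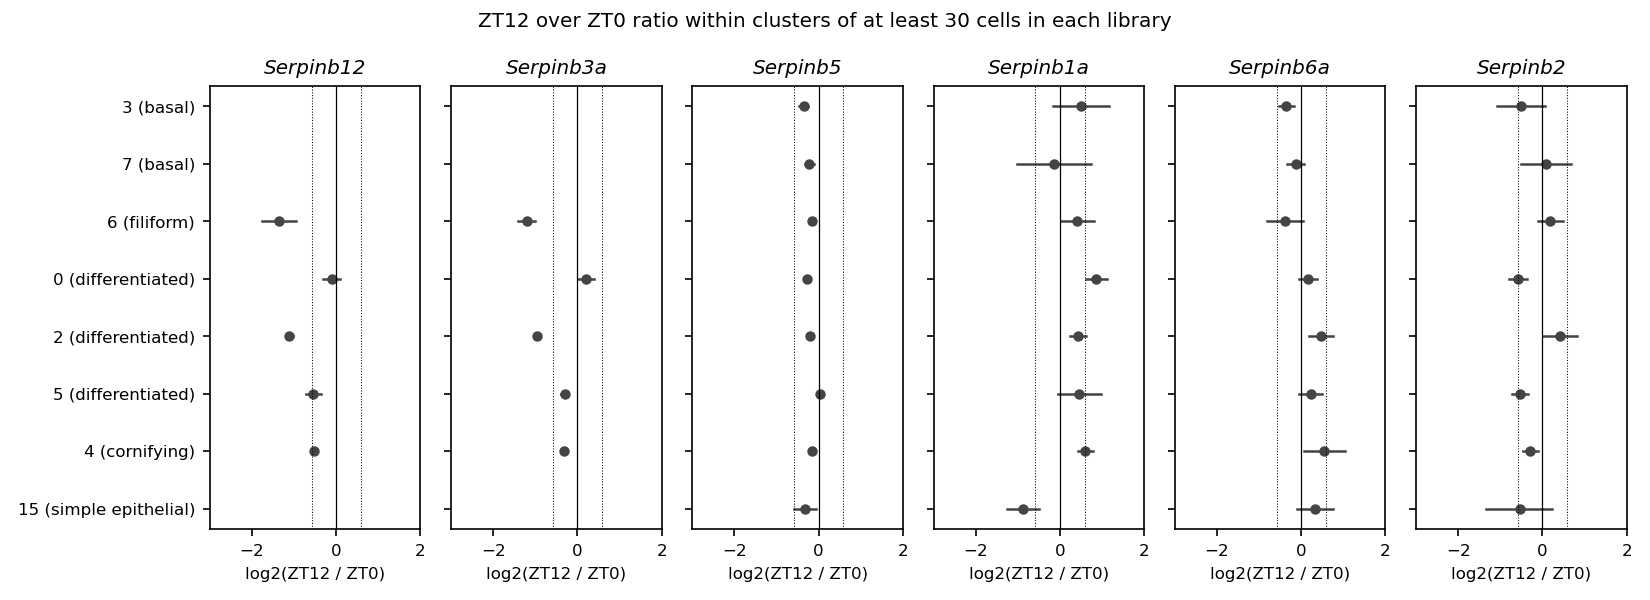
Log2 ratio of ZT12 to ZT0 for 6 members within the 8 clusters of named classes that had at least 30 cells in each library, with exact 95% intervals; dotted lines mark 1.5-fold, and clusters with a mean under 5 CPM have no point. Serpinb12 lies below 0 in each cluster drawn, and Serpinb1a lies above 0 in all but clusters 7 and 15.

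Within clusters of at least 30 cells in each library, unnamed ones included, Serpinb12 reached 5 CPM in 6 and was below 1 in ratio of ZT12 to ZT0 in all 6, from 0.391 in cluster 6 to 0.928 in cluster 0, with 3 called. Serpinb5 reached it in 10 and was below 1 in 9, from 0.783 to 1.02, with none called at 1.5-fold. Serpinb1a was above 1 in 7 of 10, with 2 called higher and 1 lower. Serpinb3a was above 1 in 3 of 7, Serpinb6a in 5 of 10 and Serpinb2 in 4 of 10. The clusters in which Serpinb12 was called were cluster 2 (0.461, 0.435 to 0.489), cluster 6 (0.391, 0.296 to 0.513) and the unnamed cluster 14 (0.610, 0.379 to 0.975, from 43 and 35 UMIs in cells with a median of 2076 UMIs). The rule called 5.92% of all genes in cluster 2, 6.02% in cluster 6, 7.14% in cluster 4, and 8.05% and 7.89% in the basal-like clusters 3 and 7, in which none of the members was called at a mean of 5 CPM or more. No such share was computed for the unnamed clusters or for the simple epithelial-like cluster.

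Serpinb3c was the member with the most extreme ratio and the fewest cells. It had 309 UMIs (6.27 CPM) in the ZT0 library and 7 UMIs (0.104 CPM) in the ZT12 library. Of the 309, 302 (97.7%) were in 3 cells, and the other 7 cells with a UMI had 1 each. The 1st of the 3 was a differentiated-like cell of cluster 2 with 213 UMIs of Serpinb3c among 53097, together with 415 of Serpinb3a and 175 of Serpinb12. The others were cornifying-like cells with 71 UMIs among 3333 and 18 among 1614, far below the class median of 44587 UMIs. All 3 cells held Serpinb3a and Serpinb12, at 179 and 85 UMIs in the cell of 3333 and 33 and 13 in the smallest, and no more than 2 UMIs of Serpinb3b. At ZT12 the highest cell had 3 UMIs of Serpinb3c.

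**Figure D5:**
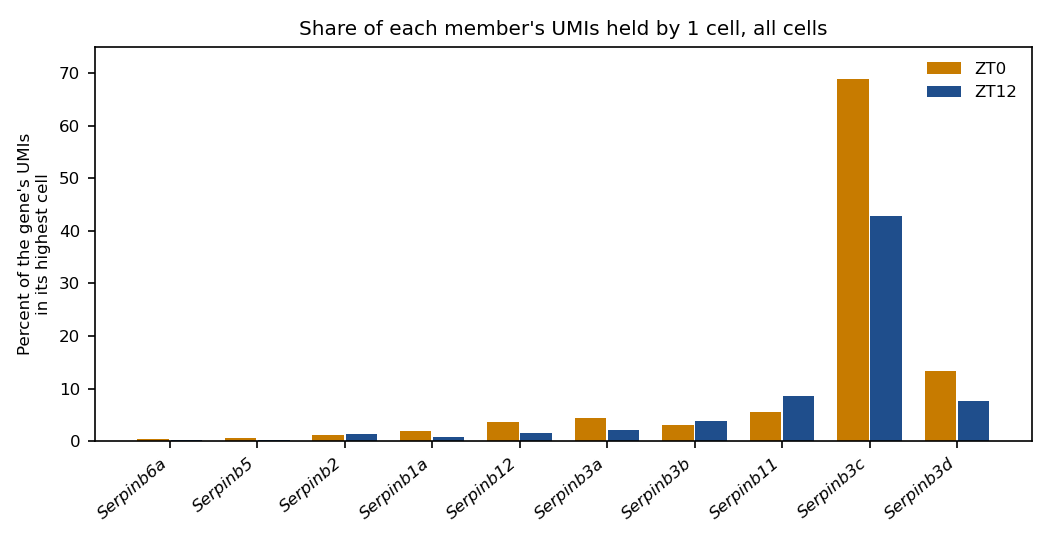
Percent of each member's UMIs that were in its highest cell, among all cells of each library (ZT0 orange, ZT12 blue). Serpinb3c stands apart, with 68.9% of 309 UMIs at ZT0 and 42.9% of 7 UMIs at ZT12, whereas 1 cell held under 1% of the UMIs of Serpinb5 and Serpinb6a.

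Of the 17 other Serpinb genes, 2 reached 5 CPM in all cells and none of them was called there. Serpinb8, a furin inhibitor in human, was at 20.1 and 13.5 CPM in all cells and highest of the 4 classes in filiform-like cells (51.4 and 37.6 CPM), and it was called lower at ZT12 in cornifying-like cells (9.15 and 4.57 CPM). The other call in a class was Serpinb13, named after its values were seen, which was higher at ZT12 in filiform-like cells (5.48 and 10.1 CPM, ratio 1.85, 1.03 to 3.51). Serpinb6b was at 19.2 and 22.7 CPM in basal-like cells and 1.61 and 2.45 CPM in cornifying-like cells, the same order of layers as Serpinb6a. Serpinb9b to Serpinb9h, Serpinb6d and Serpinb6e were listed without a single UMI in any of the 4 classes.

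In all cells the rule called 1.16% of all genes tested as higher and 5.46% as lower at ZT12. Of 42 proteases listed as possible targets or partners, 22 were tested there, with 2 higher and 1 lower. Klk14, a trypsin-like kallikrein of shedding epidermis, was the gene called lower. It was at 25.3 and 5.13 CPM in cornifying-like cells, 4.93-fold higher at ZT0 (3.43 to 7.18), and was also called lower at ZT12 in differentiated-like and filiform-like cells. Cathepsin L (Ctsl), a lysosomal cysteine protease, was 2.16-fold higher at ZT12 (2.03 to 2.30) in all cells, from 27.7 to 59.9 CPM, and 3.06-fold higher (2.71 to 3.46) in differentiated-like cells. Plau, the urokinase plasminogen activator that Serpinb2 inhibits, was called lower at ZT12 in filiform-like cells, at 9.25 and 4.28 CPM, a class in which Serpinb2 was at 61.6 and 68.7 CPM. Klk13, another kallikrein, was called lower in basal-like cells, at 31.2 and 16.6 CPM.

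Of 32 protease inhibitors outside clade B, 17 were tested in all cells, with 1 higher and 6 lower at ZT12. The shares over all genes were again 1.16% higher and 5.46% lower. Slpi, a secreted inhibitor of leukocyte elastase, was at 164 and 12.6 CPM in cornifying-like cells, 13.0-fold higher at ZT0 (10.6 to 16), and at 24.3 and 0.45 CPM in filiform-like cells. Cstdc5, a gene of the cystatin family, was 3.32-fold higher at ZT0 (2.64 to 4.20) in differentiated-like cells, at 12.9 and 3.87 CPM. Serpine2, a secreted serpin of clade E, was 3.12-fold higher at ZT0 (2.94 to 3.31) in all cells and was called lower at ZT12 in each of the 4 classes. Timp3, an inhibitor of matrix metalloproteases, was called lower at ZT12 in all cells (11.7 and 6.10 CPM) but higher in basal-like cells (4.73 and 13.2 CPM). The median log2 ratio of the tested inhibitors was -0.28 in all cells, against 0.05 for the tested proteases and -0.04 for all genes.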

How the data were processed

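Counts were used as the authors deposited them: raw UMI counts per gene and barcode from 10x Genomics 3' libraries of viable (7-AAD negative) sorted cells. Cell Ranger 2.1.1 and mm10 are named in the submitters' processing notes, whereas the matrices were written by Cell Ranger 4.0.0, per the file headers; the difference was not settled, and no source names the annotation release. Free RNA was not removed. Because a 3' library gives 1 UMI per captured transcript, counts do not scale with gene length.

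Barcodes with under 500 genes or 10% or more mitochondrial UMIs were removed (129 at ZT0, 191 at ZT12), then 4 and 8 called doublets, so low a number that doublets were in effect not removed. Cells were clustered together on 2000 variable genes, 30 components, 15 neighbours and Leiden resolution 1.0 (scanpy 1.11.5, leidenalg 0.10.2). No integration was done, since library and time are the same factor. Serpinb genes were left out of the variable genes, as were clock genes with some of their outputs. Immediate early, heat shock, ribosomal, mitochondrial and sex-linked genes were also left out. A cluster took a restricted name (cornifying, filiform, proliferating, leukocyte, simple epithelial) with 4 or more markers at 20 CPM and 10 times the median cluster; the others were basal-like or differentiated-like by the higher of 2 marker scores, or unnamed if within 0.05 or led by markers of another list (134 and 263 cells). UMIs were summed per library and class and divided by the total, in CPM. Ratios carry exact conditional binomial, levels exact Poisson and shares exact Clopper-Pearson 95% intervals. Shares used cells thinned to 10000 UMIs (107 and 165 shallower cells left out; before thinning, 57.9% and 41.1% of differentiated-like cells had a Serpinb12 UMI). The call rule was tested on simulated counts of all cells and of cornifying-like cells. Of the genes left unchanged it called 0 of 9320 in all cells and 118 of 8278 in cornifying-like cells. Of those changed 1.25-fold it called 0 of 67 and 4 of 72, and of those changed 2-fold 66 of 66 and 56 of 56. With 1 library per time, variation between mice or libraries could not be covered. Alternatives covered the cell filter, clustering, shallow cells, clusters of 1 library, edgeR 4.0.16 TMM scaling, averaging over cells, minimum level, pseudocount and class makeup.

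The members, the lists and the naming rule were chosen with earlier results of these data known. Named besides the members were other Serpinb genes of 20 CPM or more, the 3 genes most correlated with each member of 20 CPM or more, and, of the called genes of each list, the 4 with the largest ratio in any class. Protein sequences were not used here, so the planned protein comparison was replaced by the identity of the longest reading frames (GENCODE M21, global alignment, Biopython 1.88).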

Additional observations from a re-analysis of the deposited data

Results flagged for a closer look

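Serpinb1a was called in opposite directions in different classes. Its log2 ratio of ZT12 to ZT0 was 0.60 in cornifying-like cells (83.2 to 126 CPM) and -0.87 in simple epithelial-like cells (244 to 133 CPM, 34 cells in each library). The rule called 7.14% of all genes in cornifying-like cells, and no such share was computed for simple epithelial-like cells. With 1 library per time the difference between the classes was not tested. In simple epithelial-like cells, 5 cells held 53.8% of the ZT0 and 68.7% of the ZT12 UMIs of the gene, and the summed level of that class's own markers was 5053 CPM at ZT0 and 9093 CPM at ZT12.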

How the results depend on the processing

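No paired analysis was possible because each time had 1 library. Over 13 settings, 431 of 450 member ratios kept their sign. The number of members called is given here without the members tested or the share of all genes called under each setting. It therefore cannot be set against the shares of the main setting. It moved by over 1.5 times as follows. Under a strict filter (1000 genes, 5% mitochondrial UMIs) there were 0 calls for the basal-like class and 1 each for the differentiated-like and cornifying-like classes. At resolution 2.0 it was 2 in differentiated-like cells, and with serpins among the variable genes 0 in basal-like cells. Without shallow cells it was 2 in cornifying-like cells, and without clusters of 1 library 3 in all cells. With a minimum of 50 CPM these 3 classes had 0, 2 and 1, and with none 2 in all cells and 2 in basal-like cells. With 2 alternatives added after the data were seen, it was 4 in all cells and 0 in basal-like cells over clusters of at least 30 cells in each library, and 0 in basal-like and 2 in cornifying-like cells without the highest cell per member. Some signs turned. Serpinb12 in basal-like cells had a log2 ratio of 0.20 under the strict filter, 0.015 with serpins among the variable genes and 0.80 over clusters of at least 30 cells in each library. Serpinb3c in differentiated-like cells had 0.41 under the strict filter, Serpinb3b there 0.12 at resolution 0.5, and Serpinb12 in filiform-like cells 1.45 at resolution 2.0. The causes were not tested. In all cells, averaging over cells and equal class weights each left 1 call, but lower at ZT12, and Serpinb1a missed 1.5-fold (log2 ratios 0.51 and 0.48). The scaling of TMM shifted log2 ratios by at most 0.06.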

Other observations

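Cluster 13, which stayed unnamed because calprotectin and a simple keratin were among its leading genes, held 4 cells at ZT0 and 115 at ZT12. Over both libraries it had 738 CPM of Serpinb3a, 197 CPM of Serpinb12, 956 CPM of Serpinb5 and 198 CPM of Serpinb1a, but 1.99 CPM of Serpinb3b and no UMI of Serpinb3c or Serpinb3d. Cluster 17, a basal-like cluster led by Krt42 and Krt75 with 36 and 22 cells, had 71.8 CPM of Serpinb12 at ZT0 and 19.9 CPM at ZT12, with 1.26 and 17.4 CPM of Serpinb3a. Of its ZT0 Serpinb12 UMIs, 42 were in the 1 basal-like cell with at least 20, which held 0 of Serpinb3a.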
